A study of Homo sapiens with 24 samples.

Results

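Among 117322 regions of open chromatin mapped by FAIRE-seq, 504 (0.43%) left the strongest peaks of LNCaP and of RES-A cells when the androgen dihydrotestosterone (DHT) was added. These DHT-closed regions were chosen by a rule on the peak lists. In each of the 24 lists the 50000 peaks with the highest pileup (the number of fragments stacked at the summit) were kept, and the kept peaks of all lists were merged wherever they shared at least 1 bp. A region was DHT-closed when at least 2 of 3 DMSO lists and 0 of 3 DHT lists kept it in LNCaP, and the same held in RES-A. The rule was met by 4667 regions in LNCaP and by 5719 in RES-A, so the shared regions were 10.8% of the first and 8.81% of the second. The opposite rule, kept with DHT and not with DMSO in both sublines, was met by 1044 regions, called DHT-opened here. A further 25193 regions were kept in at least 2 of 3 lists with DMSO and with DHT in both sublines and are called stable.

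LNCaP is an androgen-sensitive human prostate cancer line and served as the parental subline. RES-A is a derivative of LNCaP that was grown in rising concentrations of enzalutamide (ENZ, MDV in the sample labels) until it was resistant, and it represents 1 resistant derivative. Both sublines spent 3 days in medium with 5% serum stripped of steroids, to which 10 µM ENZ was added for RES-A alone, and were then treated for 18 h with the solvent DMSO, with 10 nM DHT, with 10 µM ENZ or with DHT and ENZ together (DHT+ENZ), in 3 biological replicates for each of the 8 groups. The RES-A groups given DMSO or DHT were therefore taken off ENZ for the 18 h, which the LNCaP groups were not, and subline and preculture cannot be told apart.

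FAIRE recovers DNA that is not wrapped in nucleosomes from cross-linked chromatin, so a stronger peak marks more open DNA, as is found at active promoters and enhancers. The androgen receptor is a transcription factor that moves to the nucleus and binds DNA once it holds an androgen such as DHT. It is known both to activate and to repress genes in prostate cells. ENZ competes for the hormone pocket of the receptor and impedes its entry to the nucleus and its binding to DNA. Cells given both agents thus met the androgen and its competitor together, and how far the receptor was blocked was not measured here.

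The lists differed in depth. They held 73254 to 275774 peaks, and the last peak kept had a pileup between 6 and 56. The shallowest lists were LNCaP ENZ replicate 1 and LNCaP DHT replicate 1, whose last kept peaks had pileups of 6 and 8, against 19 or more in the others. Any 2 replicates shared 41.6% to 77.4% of the regions kept in either, and no list repeated another. FAIRE was done on whole cultures, so a weaker peak in every cell and the loss of a peak in some of the cells cannot be told apart. The read totals were not used here, and the number of libraries limits the precision. To compare libraries, each region was given a level, the highest pileup of any deposited peak over it divided by the pileup of the last kept peak of that list, so that a level of 1 is the edge of the 50000. In the group means given in the text, a list with no peak at a region was set to its lowest pileup.

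The 504 regions lay close to that edge. Their median level over the 6 DMSO lists was 1.143, with quartiles of 1.077 and 1.239 and a highest value of 1.685, against a median of 1.752 for the stable regions. They were 238 to 2083 bp long with a median of 510.5 bp, and the median of all regions was 432 bp. Most still carried a weaker peak with DHT. A peak of any rank was present at 96.23% to 99.21% of them in the 5 deeper DHT lists and at 25.79% in LNCaP DHT replicate 1. The median change in log2 level from DMSO to DHT was −0.60 in LNCaP and −0.67 in RES-A, where the stable regions had −0.19 and −0.02. These falls chose the regions and are given as a description. The LNCaP fall includes set values at members without a peak in LNCaP DHT replicate 1. "Closed" thus stands for a weaker peak that left the top 50000 and not for the loss of every signal.

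**Figure D1:**
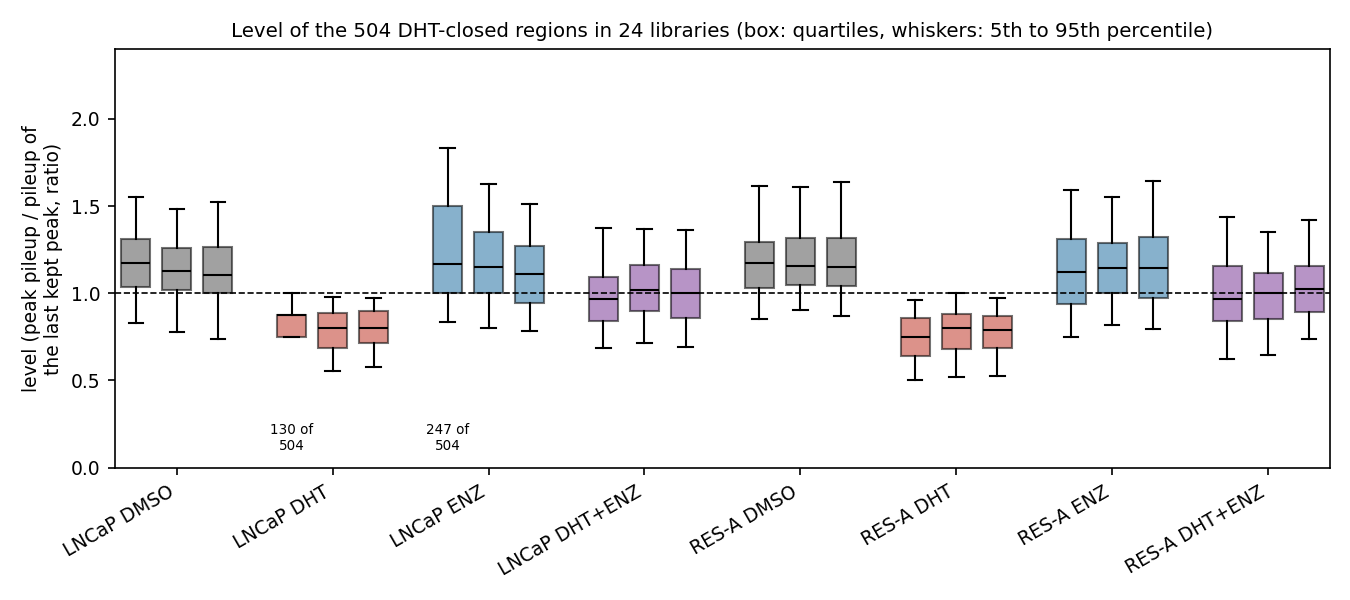
Level (ratio of the peak's pileup to that of the last kept peak) of the 504 DHT-closed regions in each of the 24 libraries. Boxes span the quartiles, whiskers run from the 5th to the 95th percentile, the dashed line marks a level of 1, and regions without any peak are left out (the number with a peak is printed for the 2 shallow lists). The DHT boxes lie below 1 by the rule, and the DHT+ENZ boxes straddle 1 in both sublines.

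The limit on DHT was narrow. For 91 members a DHT list held a peak with the same pileup as its last kept peak, so that the tie was broken by length, and for 224 members the highest DHT level was at least 0.95. The members nearest the limit were chr1:19515685-19516566, with levels of 0.929, 1.0 and 0.737 in the RES-A DHT lists, and chr1:33209400-33209762, with 0.667 and 1.0 in LNCaP DHT replicates 2 and 3. Just outside, 801 regions met every other condition but were kept by exactly 1 DHT list. Among them chr1:940625-941016 had 0.571, 0.76 and 1.0 in the RES-A DHT lists, and chr1:7447549-7447919 had 1.0, 0.92 and 0.842. Members and near-members thus had the same levels at the limit.

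With DHT+ENZ the share of the regions among the kept peaks was near 51% in both sublines. In the LNCaP DHT+ENZ lists 46.23%, 56.55% and 50.99% of the 504 regions were kept (51.26% ± 5.16, SD, n = 3). In the RES-A DHT+ENZ lists the shares were 49.6%, 50.4% and 52.98% (50.99% ± 1.76, SD, n = 3). The ranges of the sublines overlapped. The difference, RES-A minus LNCaP, was −0.265 percentage points. It lay between −9.22 and 6.52 when single libraries were left out and was −8.16 when all 3 DMSO lists were needed, so its sign was not settled. The DMSO lists, which chose the regions, kept 80.69% ± 1.91 in LNCaP and 86.24% ± 0.999 in RES-A (SD, n = 3), and the DHT lists kept 0%.

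With ENZ alone more of the regions were kept, and the LNCaP lists were spread widely. The LNCaP ENZ lists kept 40.08%, 74.01% and 67.26% (60.45% ± 18.0, SD, n = 3), and the RES-A ENZ lists kept 65.28%, 75.79% and 72.42% (71.16% ± 5.37, SD, n = 3). The lowest value was that of LNCaP ENZ replicate 1, the shallowest list. Without it the subline difference of 10.7 percentage points shrank to 0.529, and without any other single library it lay between 6.43 and 17.5. In RES-A every DHT+ENZ list kept fewer of the regions than every ENZ list, a mean difference of −20.2 percentage points. In LNCaP the difference was −9.19 points, and −19.4 without LNCaP ENZ replicate 1, when the 2 groups no longer overlapped. By contrast, 22.48% ± 8.31 of the DHT-opened regions were kept with DHT+ENZ in LNCaP and 26.02% ± 1.36 in RES-A (SD, n = 3), against 6.833% ± 3.66 and 5.3% ± 0.864 with ENZ alone. The stable regions were kept at 89.4% to 96.42% in the same 4 groups on average, and all regions together at 41.81% to 41.99%.

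**Figure D2:**
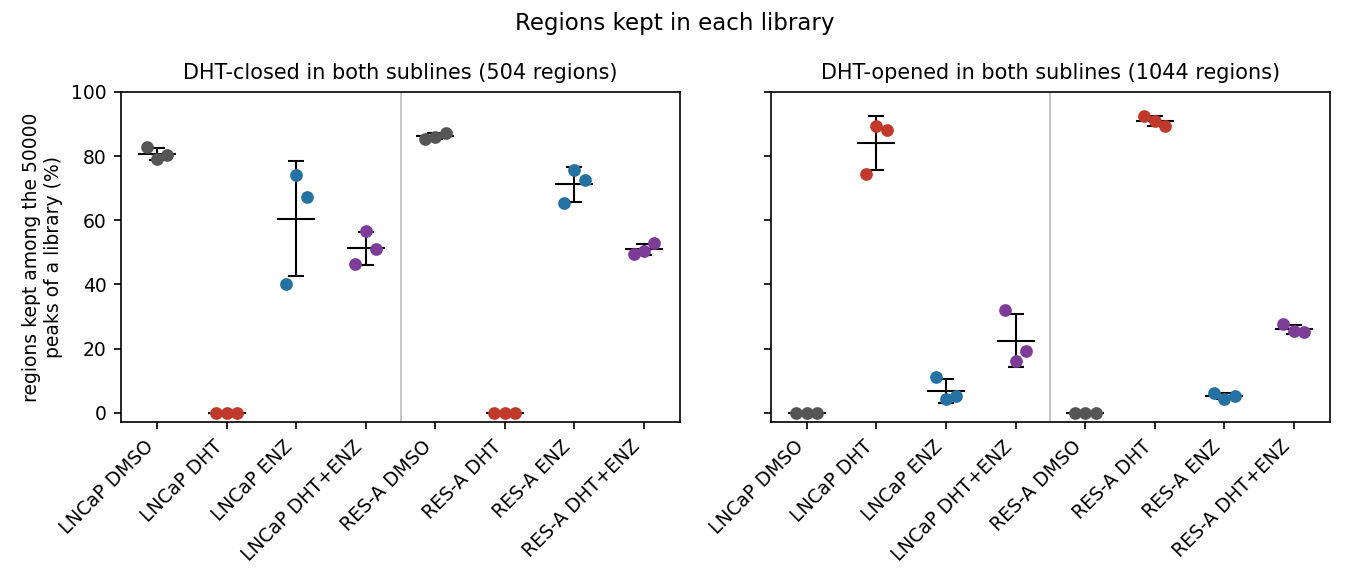
Share of the DHT-closed regions (left) and of the DHT-opened regions (right) kept among the 50000 strongest peaks, for each library (points), with the group mean and SD (bars, n = 3). With DHT+ENZ about 51% of the DHT-closed regions were kept in either subline, below ENZ alone in RES-A, while 22.48% and 26.02% of the DHT-opened regions were kept. The DMSO and DHT groups chose both sets.

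The level showed where DHT+ENZ lay between the other states. The mean log2 level with DHT+ENZ fell between those with DHT and with DMSO at 396 of the 504 regions in LNCaP and at 420 in RES-A. It was above DMSO at 93 and 56 regions and below DHT at 16 and 28. In LNCaP 1 region, chr12:48080460-48080813, is in both of the last counts, since its mean level was 0.884 with DMSO and 0.958 with DHT although 2 DMSO lists and no DHT list kept it. With DHT+ENZ the median region showed 29.7% of its fall from DMSO to DHT in LNCaP and 35.3% in RES-A. In log2 units the median change from DMSO to DHT+ENZ was −0.18 and −0.24, and from DMSO to ENZ it was −0.12 in LNCaP and −0.06 in RES-A. The DMSO and DHT levels entered the rule, so these positions are a description. The LNCaP values include set values. A peak was listed at 130 of the 504 members in LNCaP DHT replicate 1 and at 247 in LNCaP ENZ replicate 1. How far this moved the LNCaP values was not tested.

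With DHT+ENZ the lists of the sublines often kept different members. By a majority of the 3 lists, LNCaP kept 254 of the 504 (50.4%, against 41.2% of all regions) and RES-A kept 251 (49.8%, against 41.3%). Both kept 134 (26.6%), LNCaP alone 120 (23.8%), RES-A alone 117 (23.2%) and neither 133 (26.4%). Of the 32817 regions kept with DMSO in both sublines, 86.7% were kept by both with DHT+ENZ, 4.97% by LNCaP alone and 6.78% by RES-A alone. Those regions were not matched for level. Their median DMSO level was 1.61, against 1.143 for the members. With DHT+ENZ the median member level averaged 0.996 in LNCaP and 0.998 in RES-A, at the edge that decides a call. How far this proximity to the edge accounts for the split calls was not tested. Of the 254 that LNCaP kept, RES-A kept 52.8%, and of the 250 that LNCaP did not keep, RES-A kept 46.8%. The LNCaP call thus told little about the RES-A call. With ENZ alone the calls ran together more. LNCaP kept 337 (66.9%, against 39.5% of all regions) and RES-A 374 (74.2%, against 41.5%), of which 264 were kept in both, 73 by LNCaP only, 110 by RES-A only and 57 by neither. RES-A kept 78.3% of those that LNCaP kept with ENZ and 65.9% of those that it did not. Across the 504 regions the mean log2 level of one subline correlated with that of the other at r = 0.275 (Spearman's rho = 0.255) with ENZ and at r = 0.144 (rho = 0.137) with DHT+ENZ, a description over regions that were chosen for like behaviour with DMSO and DHT.

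**Figure D3:**
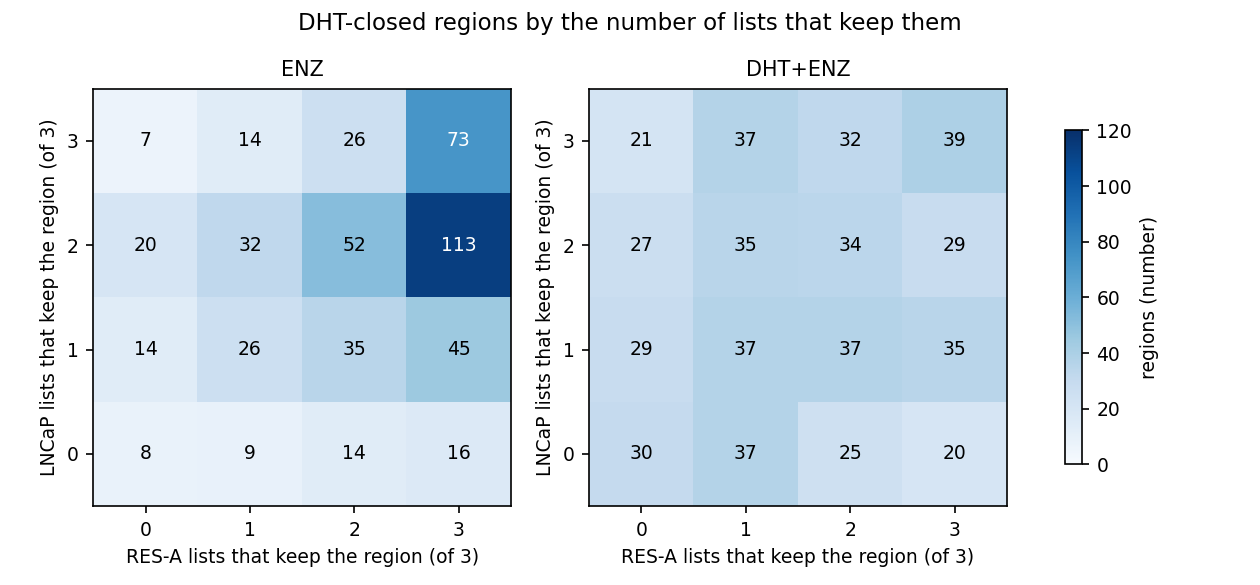
Number of DHT-closed regions by how many of the 3 LNCaP lists (vertical axis) and of the 3 RES-A lists (horizontal axis) kept them, with ENZ (left) and with DHT+ENZ (right). With ENZ the counts gather at 2 or 3 lists of each subline, with 113 in the fullest cell. With DHT+ENZ they are spread evenly, from 20 to 39 in a cell.

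Complete splits between the sublines were few. With DHT+ENZ all 3 RES-A lists and no LNCaP list kept 20 of the regions (3.97%, against 6.54% of all regions), and the reverse held for 21 (4.17%, against 5.98%). With ENZ the counts were 16 (3.17%, against 6.69%) and 7 (1.39%, against 3.15%). These shares lay below those of all regions in all 4 cases. They lay above those of the 32817 regions kept with DMSO in both sublines. Of these, RES-A alone kept 1.69% and LNCaP alone 0.914% in this way with DHT+ENZ, and 1.34% and 0.387% with ENZ. The rule had required like calls in both sublines with DMSO and with DHT, a condition not set on all regions. All 6 DHT+ENZ lists kept 39 regions (7.74%) and none kept 30 (5.95%). For ENZ these were 73 (14.5%) and 8 (1.59%).

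The classes by DHT+ENZ call differed in their levels under the other treatments. The DMSO and DHT levels chose the members and lie in a narrow band around the edge, so they are given here as a description. The 120 regions kept in LNCaP alone had a median DMSO level of 1.207 in LNCaP and 1.083 in RES-A. The 117 kept in RES-A alone had 1.067 in LNCaP and 1.206 in RES-A, the opposite order. The 134 kept in both had 1.197 and 1.293, and the 133 kept in neither had 1.045 and 1.093. The same order was seen with ENZ: 1.125 against 1.029 for the regions of LNCaP alone and 1.006 against 1.209 for those of RES-A alone. With DHT the regions of LNCaP alone stood at 0.795 against 0.687 and those of RES-A alone at 0.724 against 0.801. The 4 classes were of similar median length, from 471 to 530.5 bp.

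Across the 504 regions the difference between the sublines with DMSO correlated with the difference with DHT+ENZ at r = 0.554 (rho = 0.513), and the 2 differences had the same sign at 328 regions (65.1%). They share no library. For ENZ against DHT+ENZ r was 0.542 (rho = 0.526), with the same sign at 338 regions, and for DHT against DHT+ENZ it was 0.526 (rho = 0.534), with the same sign at 352. The stable regions had higher values, r = 0.762 for DMSO against DHT+ENZ and 0.768 for DHT against DHT+ENZ. Such correlations were thus not particular to the DHT-closed regions. The DMSO and DHT levels chose the members and are confined by the rule to a narrow band, so the values that use them are a description. Regions are not independent replicates, and depth is shared by all regions of a library.

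Tested region by region, a smaller share of the members than of all regions differed between the sublines. The rule had required like calls in both sublines with DMSO and with DHT, so this comparison of shares is a description. In a limma fit of log2 level over the 12 ENZ and DHT+ENZ libraries and 103322 regions, which held all 504 members, 23 members were higher in RES-A than in LNCaP with DHT+ENZ (4.56%, against 22.7% of all regions) and 20 were lower (3.97%, against 19.6%) at an adjusted p under 0.05. Together they were 8.53% of the members, against 42.3% of all regions and 21.9% of the stable regions. The median difference of the members was 0.01 on the log2 scale, and that of all regions was 0.03. On the deposited fold enrichment, where the median of all regions was 0.30, 24 members were higher and 0 lower. With ENZ 39 members were higher (7.74%, against 23.0%) and 15 lower (2.98%, against 19.9%), in all 10.7% against 43.0% of all regions. The median was 0.13 against 0.04. That lean to RES-A rested on LNCaP ENZ replicate 1, without which 33 members were higher and 35 lower and the median was 0.01. A missing peak was set to the lowest pileup of its list in the fit, which concerned 267 of the 6048 member values, 257 of them in LNCaP ENZ replicate 1.

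These counts moved with single libraries. For DHT+ENZ the 43 of 504 members (all regions 42.3%) became 93 of 504 without LNCaP ENZ replicate 1 (all regions 53.1%). They became 67 of 649 without LNCaP DHT replicate 2 (42.1%) and 71 of 653 without RES-A DHT replicate 3 (42.3%). They became 28 of 311 without LNCaP DMSO replicate 3 (42.5%). Without LNCaP DHT+ENZ replicates 1, 2 and 3 they became 28, 28 and 27 (34.9%, 32.8% and 33.6%). Without RES-A DHT+ENZ replicates 1 and 2 they became 23 and 24 (31.7% and 32.8%). For ENZ the 54 of 504 members (all regions 43.0%) became 85 of 630 and 95 of 653 without RES-A DHT replicates 2 and 3 (43.1% and 43.0%). They became 30 of 299 and 31 of 311 without LNCaP DMSO replicates 1 and 3 (42.9% and 43.2%). Without RES-A ENZ replicates 1, 2 and 3 they became 33, 32 and 28 (32.8%, 33.1% and 33.1%). Leaving out a DMSO or DHT library also changes which regions are members.

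The 3 members most clearly higher in RES-A with DHT+ENZ lay on chromosomes 10, 5 and 17. At chr10:28784999-28786086 (1088 bp) the levels with DHT+ENZ were 0.844, 0.755 and 0.694 in LNCaP and 1.34, 1.35 and 1.29 in RES-A, a log2 difference of 0.80 ± 0.16 (SE, limma adjusted p = 0.000733). Its DMSO levels were 0.862, 1.0 and 1.05 in LNCaP and 1.5, 1.76 and 1.53 in RES-A. The DHT+ENZ groups did not overlap, and RES-A kept the region in all 3 lists while LNCaP kept it in none. With ENZ the levels were 1.0, 1.07 and 0.973 in LNCaP and 1.22, 1.27 and 1.26 in RES-A, and the difference of 0.30 did not pass the test (limma adjusted p = 0.134). In LNCaP the DHT+ENZ levels were thus below all of the ENZ levels, and in RES-A they were above all of them.

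At chr5:139022576-139022963 (388 bp) the levels with DHT+ENZ were 0.688, 0.918 and 1.0 in LNCaP and 1.88, 1.62 and 1.34 in RES-A, a log2 difference of 0.90 ± 0.18 (SE, limma adjusted p = 0.000949). With ENZ they were 1.0, 1.02 and 0.973 against 1.69, 1.55 and 1.91, a difference of 0.78 (limma adjusted p = 0.00285). RES-A was above LNCaP in every library of both treatments. At chr17:73016382-73016883 (502 bp) the DHT+ENZ levels were 0.562, 0.959 and 0.917 in LNCaP and 1.66, 1.59 and 1.39 in RES-A, a log2 difference of 0.96 ± 0.22 (SE, limma adjusted p = 0.00207). All 3 RES-A lists kept it with either treatment and no LNCaP list did.

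The 3 members most clearly lower in RES-A lay on chromosomes 15, 7 and 17. At chr15:34558946-34559378 (433 bp) the levels with DHT+ENZ were 1.34, 1.0 and 1.22 in LNCaP and 0.75, 0.676 and 0.658 in RES-A, a log2 difference of −0.77 ± 0.19 (SE, limma adjusted p = 0.00392). With ENZ they were 1.17, 1.2 and 1.11 against 1.06, 0.875 and 1.32, and the groups overlapped. At chr7:38209289-38209740 (452 bp) the DHT+ENZ levels were 1.06, 1.12 and 1.17 in LNCaP and 0.562, 0.912 and 0.605 in RES-A, a difference of −0.72 ± 0.20 (SE, limma adjusted p = 0.00805), and the ENZ groups overlapped here too. The sublines thus stood apart at both regions with DHT+ENZ and overlapped with ENZ, but the limma test of this difference between treatments called 0 of the 504 members.

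At chr17:60965470-60965991 (522 bp) the DHT+ENZ levels were 1.38, 1.41 and 1.14 in LNCaP and 0.719, 0.529 and 0.974 in RES-A, a log2 difference of −0.86 ± 0.24 (SE, limma adjusted p = 0.0097). Without RES-A DHT+ENZ replicate 2, its lowest library, the difference was −0.64 and no longer passed the test. With ENZ the levels were 2.33, 1.62 and 1.41 in LNCaP and 1.31, 0.857 and 0.912 in RES-A, a difference of −0.79 (limma adjusted p = 0.0156). LNCaP was above RES-A in every library. When the deposited fold enrichment replaced the level, all 6 of these regions kept their direction and none passed the test.

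**Figure D4:**
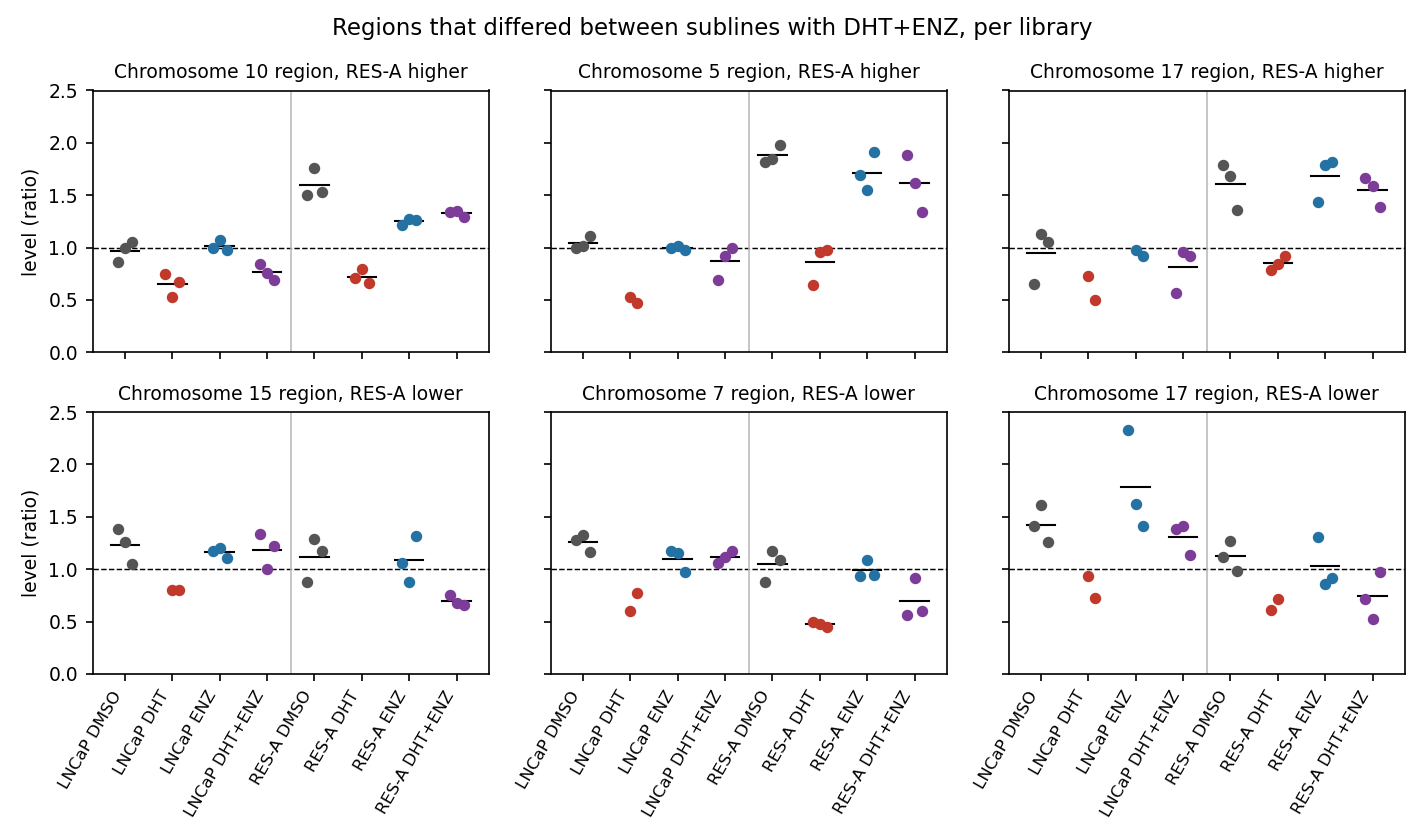
Level (ratio) in each of the 24 libraries of the 6 DHT-closed regions with the smallest p for RES-A minus LNCaP with DHT+ENZ, 3 higher (top) and 3 lower (bottom) in RES-A. Points are libraries, missing points had no peak, the short line is the mean where all 3 libraries had a peak, and the dashed line is a level of 1. In the 3 top panels the RES-A points lie above the LNCaP points with DMSO and ENZ as well.

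Most members had a slightly lower level with DHT+ENZ than with ENZ, though no single member passed the test, which does not show that none fell. In RES-A 405 of the 504 regions had a lower mean log2 level with DHT+ENZ than with ENZ, and the median difference was −0.19, against −0.01 over all regions and −0.02 over the stable ones. In LNCaP 317 of the 504 were lower, with a median of −0.07 against −0.01 over all regions. Without LNCaP ENZ replicate 1 the LNCaP median was −0.19, without LNCaP ENZ replicate 2 it was 0.03, and on the deposited fold enrichment it was 0.18 against 0.17 over all regions, so its sign was not settled. The RES-A median was −0.24 on that scale, against −0.11 over all regions. The DHT-opened regions had medians of 0.32 in LNCaP and 0.53 in RES-A, the opposite direction. The calls and levels with ENZ and DHT+ENZ were not conditions of the rule, although the kept peaks of these libraries helped to set the edges of the merged regions.

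At an adjusted p under 0.05 in limma, 0 members were called in LNCaP (0.0% of all regions) and 0 in RES-A (0.611% of all regions, 0.591% higher and 0.0194% lower). The smallest adjusted p of a member was 0.352 in LNCaP and 0.178 in RES-A. At an unadjusted p under 0.05 in the same fit 32 members were lower (6.35%, against 4.04% of all regions) and 2 higher (0.397%, against 4.4%) in LNCaP, and 43 were lower (8.53%, against 2.24%) and 1 higher (0.198%, against 4.83%) in RES-A. The DHT-opened regions had 64 calls in RES-A, all higher. In RES-A all 3 ENZ lists and no DHT+ENZ list kept 19 members (3.77%, against 0.468% of all regions) and the reverse held for 0 (0.0%, against 0.666%). In LNCaP these were 8 (1.59%, against 0.257%) and 1 (0.198%, against 0.758%). The share with this complete loss was above the background in both sublines.

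**Figure D5:**
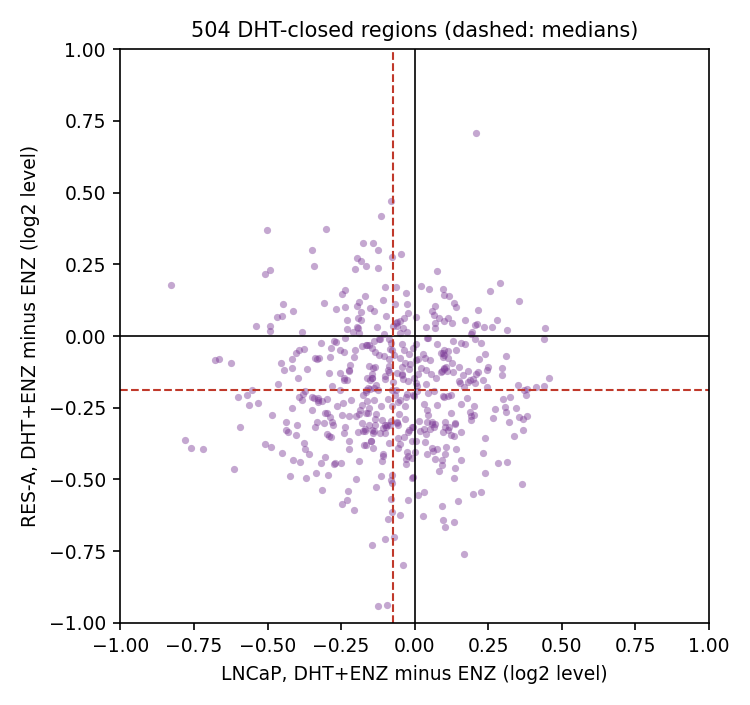
Difference in log2 level between DHT+ENZ and ENZ at each of the 504 DHT-closed regions (points), in LNCaP (horizontal axis) and in RES-A (vertical axis), with the medians dashed. The cloud lies mostly below 0 on the RES-A axis, with a median of −0.19, and nearer to 0 on the LNCaP axis, with a median of −0.07.

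Region by region, the difference between DHT+ENZ and ENZ in one subline was hardly correlated with that in the other. Across the 504 regions r between the LNCaP and the RES-A difference was −0.01 (rho = 0.00314), and 0.104 (rho = 0.124) without LNCaP ENZ replicate 1. Each difference rests on at most 3 libraries a group, and differences measured with this little precision can have a low correlation whether or not the sublines differ. The test of whether the difference itself differed between the sublines called 0 members (0.0% of all regions) in limma, with 5 members higher (0.992%, against 2.02% of all regions) and 16 lower (3.17%, against 1.41%) in RES-A at an unadjusted p under 0.05. Its median was −0.12, and 0.01 without LNCaP ENZ replicate 1. With 3 libraries a group, a p above the threshold does not show that the sublines responded alike.

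Without LNCaP ENZ replicate 1 the same fit called 4 members, 1 in LNCaP and 3 in RES-A, and all were lower with DHT+ENZ. These were named after their values were seen. At chr1:205812547-205812986 (440 bp) LNCaP had 1.4 and 1.32 in ENZ replicates 2 and 3 and 0.688, 0.735 and 0.667 with DHT+ENZ, a log2 difference of −0.97 ± 0.17 (SE, limma adjusted p = 0.0332). In RES-A the ENZ levels of 1.41, 1.34 and 1.74 overlapped the DHT+ENZ levels of 1.56, 1.24 and 1.39. With every library the LNCaP difference was −0.63 (limma adjusted p = 0.536), and no peak was listed in LNCaP ENZ replicate 1, where the lowest pileup stood in.

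At chr4:109132074-109133028 (955 bp) RES-A had ENZ levels of 1.41, 1.29 and 1.26 and DHT+ENZ levels of 0.781, 0.765 and 0.789, close to its DHT levels of 0.75, 0.8 and 0.737. The log2 difference was −0.76 ± 0.14 (SE, limma adjusted p = 0.00627), and with every library its adjusted p was 0.245. In LNCaP the DHT+ENZ levels were 1.12, 1.16 and 1.36, which all lay above 1. The difference between the sublines in DHT+ENZ minus ENZ did not pass the test. This is not the test of RES-A against LNCaP with DHT+ENZ. At chr12:5903363-5903736 the RES-A levels went from 1.72, 1.66 and 1.41 to 0.969, 0.971 and 1.13, and at chr19:55721472-55721869 from 2.12, 1.61 and 1.74 to 1.44, 1.06 and 1.18 (limma adjusted p = 0.0395 and 0.0438). Neither pair of groups overlapped.

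Calls were also counted over both treatments or both sublines. Fisher's exact test set 6 libraries against 6 at the 40274 regions kept in 3 to 9 of the 12 lists, and 364 members could be tested. RES-A kept 15 of them more often (4.12%, against 20.4% of the regions tested) and LNCaP 5 (1.37%, against 14.2%), in all 5.49% against 34.7%. Of the stable and of the DHT-opened regions tested, 4.03% and 3.87% were called. Only 1913 of the 25193 stable and 310 of the 1044 DHT-opened regions could be tested here, so these shares cannot be set beside those of limma. The 20 members became 34 without LNCaP ENZ replicate 1, 33 without LNCaP DHT+ENZ replicate 1, and 32 and 33 without RES-A DHT replicates 2 and 3. They became 8, 11 and 9 without LNCaP DMSO replicates 1, 2 and 3, and 13 without RES-A DMSO replicate 3. These are not counts out of the same set. In the level test the members were 630 and 653 without RES-A DHT replicates 2 and 3. They were 299, 319 and 311 without LNCaP DMSO replicates 1, 2 and 3, and 360 without RES-A DMSO replicate 3. Over all regions the calls ran from 13961 to 17021 without single libraries, against 13963 of the 40274 tested with every library. For DHT+ENZ against ENZ 0 members passed (0.0% of the regions tested), and at an unadjusted p under 0.05 in this exact test 6 were kept less often with DHT+ENZ (1.65%, against 0.0869%) and 0 more often (0.0%, against 0.544%).

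Within LNCaP, 220 members were kept by a majority of lists under both treatments, 117 with ENZ alone, 34 with DHT+ENZ alone and 133 with neither. Within RES-A these were 224, 150, 27 and 103. More members were thus kept with ENZ alone than with DHT+ENZ alone, 23.2% against 6.75% in LNCaP and 29.8% against 5.36% in RES-A. The LNCaP majority with ENZ includes the shallow replicate 1. Of the 32817 regions kept with DMSO in both sublines, these were 4.39% against 4.3% in LNCaP and 3.83% against 2.61% in RES-A. Those regions were not matched for level. The stable regions had 351 (1.39%) with ENZ alone and 728 (2.89%) with DHT+ENZ alone in LNCaP, and 327 (1.3%) and 459 (1.82%) in RES-A.

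Over the 12 ENZ and DHT+ENZ lists the members ranged from never to always kept. The most frequent count was 7 lists, reached by 69 members. All 12 lists kept 15 members (2.98%), 1 member was kept in none and 10 were kept in 1. Of the stable regions 64.2% were kept in all 12.

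The members kept throughout were open in the presence of ENZ with or without DHT. At chr11:60926639-60926961 (323 bp) the DHT+ENZ levels were 1.38, 1.37 and 1.19 in LNCaP and 1.75, 1.29 and 1.32 in RES-A, within or near the range of the ENZ levels, which were 1.5, 1.07 and 1.54 and 1.41, 1.62 and 1.53. At chr7:24809339-24809866 (528 bp) they were 1.12, 1.29 and 1.58 in LNCaP and 1.16, 1.15 and 1.11 in RES-A, below all of the ENZ levels, which were 1.67, 1.65 and 1.68 and 1.69, 1.59 and 1.47. At chr10:92217797-92218258 (462 bp) the RES-A levels went from 1.5, 1.5 and 1.47 under ENZ to 1.28, 1.0 and 1.03 under DHT+ENZ. The last pair of regions stayed among the kept peaks although every RES-A DHT+ENZ library was below every RES-A ENZ library.

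At the other end, chr4:140005370-140005663 (294 bp) was kept in none of the 12 lists. Its levels were 0.906, 0.816 and 0.889 with DHT+ENZ in LNCaP and 0.594, 0.853 and 0.658 in RES-A, with 0.719, 0.625 and 0.824 in the RES-A ENZ lists. Its DMSO levels had been 1.07, 0.796 and 1.05 in LNCaP and 1.06, 0.902 and 1.06 in RES-A, near the edge in every library. The regions chr20:32255269-32255556 and chr1:168525832-168526234 were kept in 1 of the 12 lists each. At the first, RES-A had 0.938, 1.12 and 0.658 with DHT+ENZ, and at the second LNCaP had 1.28, 0.796 and 0.917. A single list stood above 1 in each case.

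The members with the highest DMSO levels did not all behave alike. At chr3:9356527-9356946 (420 bp) the levels with DMSO were 1.24, 1.07 and 1.79 in LNCaP and 2.06, 2.1 and 1.85 in RES-A. With DHT+ENZ they were 1.0, 0.898 and 1.08 in LNCaP and 1.53, 1.88 and 1.97 in RES-A, a log2 difference of 0.85 ± 0.23 (SE, limma adjusted p = 0.00714), and RES-A was higher in every library. The DHT+ENZ levels overlapped those with DMSO in both sublines.

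At chr18:582456-582882 (427 bp) the DHT+ENZ levels were 1.19, 1.04 and 1.19 in LNCaP and 1.47, 1.29 and 1.45 in RES-A. The log2 difference of 0.30 ± 0.20 (SE) did not pass the test (limma adjusted p = 0.243), although the groups did not overlap. At chr9:130092590-130093220 (631 bp) they were 1.06, 0.959 and 1.0 in LNCaP and 1.47, 1.24 and 1.45 in RES-A (0.46 ± 0.24, SE, limma adjusted p = 0.142). At chr11:65560514-65560998 (485 bp) they were 1.03, 1.12 and 1.19 against 1.12, 1.38 and 1.24, and the groups overlapped.

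The 504 regions were scattered over the genome. The median distance to the nearest other member was 1700 kb, and 16 pairs of members lay within 100 kb of each other, with no larger cluster. A stable region was much nearer, at a median of 24 kb, and the nearest DHT-opened region was at 822 kb. The sets hold 25193 stable, 1044 DHT-opened and 504 DHT-closed regions, and such a distance shrinks as a set grows. Distances at equal set size were not compared. Within 100 kb of 44 members (8.73%) there was a DHT-opened region, and within 10 kb of 7 (1.39%). The DHT-opened regions lay about as near to a stable region, at a median of 23.7 kb.

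Chromosome 3 held most members, 45 (8.93%, against 7.91% of the 32817 regions kept with DMSO in both sublines). Chromosome 1 held 38 (7.54%, against 12.1%), chromosome 16 held 8 (1.59%, against 3.36%) and chromosome 17 held 11 (2.18%, against 4.44%), shares below those of the regions kept with DMSO. Chromosome 2 held 40 (7.94%, against 5.52%). Copy number was not analysed here, and no test was run on these shares. All positions are in hg19, the build of the lists. No genome or annotation of that build was used here, so the genes, exons or introns at the regions and their sequences were not analysed here.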

How the data were processed

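FAIRE-seq was performed by the authors on LNCaP and RES-A cells, with 3 biological replicates for each of 4 treatments. Reads of 50 bp were aligned to hg19 with BWA 0.7.8-r455, duplicates were handled with Picard 1.118 and peaks were called in each library with MACS2 2.1.0. The options and any control library were not given in the sources used here. The deposited lists hold, for each peak, the pileup (a signal, not scaled between libraries), a −log10 p-value, a −log10 q-value and a fold enrichment, which is a ratio to the expected pileup computed by the authors' peak caller. A region present in more copies has a higher pileup, and a shallow library ranks its peaks more coarsely.

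The sample labels gave each library its group and replicate number. From the lists, the 50000 peaks of highest pileup were kept and merged (1 bp overlap), with ties broken by length, then chromosome and start. The members, lists and tests were chosen with earlier results of these data known. The log2 level was fitted with limma 3.58.1 in R 4.3.3 over the 12 ENZ and DHT+ENZ libraries, with 1 mean for each group, for regions with a peak of any rank in at least 6 of them, and missing peaks were set to the lowest pileup of the list. Calls were compared between 6 and 6 libraries with Fisher's exact test for regions kept in 3 to 9 of 12 lists, whose smallest possible p is 0.00216. P-values are two-sided and were adjusted by the Benjamini-Hochberg method over all regions tested, with a threshold of 0.05. The fits were tested on simulated data.

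Regions named are the 4 with the highest DMSO level, the 3 in each direction with the smallest p between sublines with DHT+ENZ, the 3 kept in most and the 3 kept in fewest of the 12 lists, and the 2 nearest to the DHT limit on each side, none from chromosome 8. With every library none was eligible for DHT+ENZ against ENZ. The members called for it without LNCaP ENZ replicate 1 were named after their values were seen. The region counted both above DMSO and below DHT was named for that overlap. The planned gene lists and motifs need a genome or annotation of hg19 and were not applied. Alternatives were other numbers of kept peaks, ranking by −log10 p, stricter DMSO calls, autosomes, fold enrichment, quantile normalization, no set values, the replicate block and leaving out libraries.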

Additional observations from a re-analysis of the deposited data

How the results depend on the processing

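The number of DHT-closed regions ran from 299 to 654 when single libraries were left out and was 147 when all 3 DMSO lists were needed. Without a single library the share kept with DHT+ENZ in RES-A minus LNCaP lay between −9.22 and 6.52 percentage points (−8.16 with 3 DMSO lists), against −0.265 with every library, so its sign depended on the libraries. The share kept with DHT+ENZ minus ENZ stayed below 0 in each of these cases. When a peak of any rank counted, it was 16.8 points in LNCaP, where LNCaP ENZ replicate 1 has no peak at many members, and −0.198 in RES-A.

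With the deposited fold enrichment as level the median of all regions moved to 0.57 for RES-A minus LNCaP with ENZ and 0.30 with DHT+ENZ. Of the 504 members 86 and 24 were called (all regions 31.1% and 17.8%), all higher in RES-A. For DHT+ENZ minus ENZ the member median was then 0.18 in LNCaP, against 0.17 over all regions, and −0.24 in RES-A, against −0.11, so the LNCaP direction turned. Members called for RES-A minus LNCaP with ENZ were 83 of 513 with peaks ranked by −log10 p (all regions 42.3%). They were 16 of 147 with 3 DMSO lists (43.0%) and 21 of 246 without set values (33.1%). With DHT+ENZ they were 27 of 369 with 25000 peaks (40.8%), 73 of 513 ranked by −log10 p (41.7%) and 13 of 147 with 3 DMSO lists (42.3%). They were 114 of 647 without both shallow libraries (53.7%) and 28 of 246 without set values (31.2%). Leaving out single libraries gave 28 to 95 and 23 to 93. For Fisher's exact test between sublines they were 6 ranked by −log10 p, 1 with 3 DMSO lists, 44 without both shallow libraries, 5 with regions kept in at least 2 lists, and 8 to 34 without single libraries. The first 3 of these settings had 513, 147 and 647 members. For DHT+ENZ minus ENZ members called were 1 in LNCaP and 4 in RES-A without both shallow libraries, and 0 to 1 and 0 to 3 without single libraries.

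Over all regions, RES-A minus LNCaP called 26044 with ENZ and 24774 with DHT+ENZ with 25000 peaks, 13528 and 12774 without set values, and 18424 with DHT+ENZ by fold enrichment. Leaving out single libraries gave 32481 to 47199 and 31354 to 51838. Fisher's exact test called 7207 with 25000 peaks, 5596 ranked by −log10 p and 6885 with regions kept in at least 2 lists. DHT+ENZ minus ENZ called 2 in LNCaP with 70000 peaks, 56 without both shallow libraries, 33 by quantile normalization, 2 by fold enrichment, and 0 to 57 without single libraries. In RES-A it called 1908, 302 and 50 under the last 3 of those settings, 335 without set values, and 206 to 1899 without single libraries. The difference between sublines was called at 7 regions without both shallow libraries and at 0 to 7 without single libraries.

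Same-numbered libraries did not deviate together in every pair (r of −0.04 to 0.19), so the numbers were not taken as pairs. With the replicate block DHT+ENZ minus ENZ called 1 region in LNCaP and 446 in RES-A, the difference between sublines 1, and no member. The block shared by the sublines, added after the data were seen, called 59 of 504 members with ENZ (all regions 43.5%) and 45 with DHT+ENZ (42.7%). A sign test over pairs as a replicate block called 0 members and 0 regions between sublines, because its smallest adjusted p is 0.18.

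In the shallow lists the last kept peaks had pileups of 6 and 8, so levels there are coarse, and missing peaks are frequent. By Fisher's exact test 0 members were called for DHT+ENZ against ENZ in all 32 alternatives, with 6 of them at an unadjusted p under 0.05 with every library.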
